A study of Mus musculus with 2 samples.

Results

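Transcripts of 9 transcription factor genes that pattern the embryo were examined in cultured mouse muscle precursors with and without Wnt3a. The genes were the odd-skipped related factors Osr1 and Osr2, the NET-family repressors Zfp503 and Zfp703, the GATA factors Gata2, Gata3, Gata4 and Gata6, and Dmrt2. They were taken by symbol from the deposited value table, using all probe sets that the platform annotation assigns to 1 gene only, which gave 17 probe sets for 9 of 18193 genes. The genes were chosen by name with their measured Wnt3a minus control differences in view, so the values below describe these arrays and are not tested. Primary myoblasts came from newborn Sv129 mice and were grown on laminin and collagen. Both groups then spent 4 hours in DMEM holding 2% horse serum. The control group had no further addition, and the other received Wnt3a protein at 100 ng/ml. Wnt3a is a secreted signal that spares β-catenin from destruction and so lets it act with TCF/LEF factors on target genes. There was 1 array per group, so no value has a replicate check and no p-value can be given.

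Osr1 and Osr2 are zinc finger proteins of the odd-skipped family. Osr1 is needed for the intermediate mesoderm and kidney and marks connective tissue progenitors of the limb, and Osr2 acts in palate growth, tooth patterning and joints. The NET family is a small group of atypical zinc finger proteins that repress transcription together with Groucho/TLE corepressors. Its mouse members are Zfp503, known from the developing striatum and limb, and Zfp703, whose human counterpart is amplified in luminal breast tumours. GATA factors bind the sequence they are named for, with Gata2 best known from blood stem cells, mast cells and endothelium, Gata3 from T cells, mammary epithelium and sympathetic neurons, and Gata4 and Gata6 from heart and endoderm. Dmrt2 carries the DM DNA-binding domain and acts in the dermomyotome of the somite, where it takes part in the early activation of Myf5, a gene for a myogenic determination factor.

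Start-site sequence was available for 4 of the 9 genes in the RefSeq promoter table of build GRCm38.p6. Those of Zfp503, Gata3 and Dmrt2 are printed because their transcripts differed by at least 1.5-fold between the arrays, Zfp503 and Gata3 being higher and Dmrt2 lower with Wnt3a. Each line holds the 250 bases before the annotated start, 5′ to 3′ on the strand of the gene. Capitals mark matches on either strand to any of 4 motifs. These were the TCF/LEF motif (CTTTG followed by AA, AT, TA or TT), the GATA motif (GATA preceded by A or T and followed by A or G), the GC box (GGGCGG) and the CCAAT box (CCAAT). The windows are chr14:21989602-21989851 on the minus strand for Zfp503, chr2:9878601-9878850 on the minus strand for Gata3 and chr19:25672161-25672410 on the plus strand for Dmrt2.
Zfp503: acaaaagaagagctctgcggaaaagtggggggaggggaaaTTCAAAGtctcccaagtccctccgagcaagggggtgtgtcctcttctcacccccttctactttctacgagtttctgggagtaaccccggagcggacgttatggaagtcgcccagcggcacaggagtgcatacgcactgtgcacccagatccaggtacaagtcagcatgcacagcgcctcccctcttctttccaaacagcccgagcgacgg
Gata3: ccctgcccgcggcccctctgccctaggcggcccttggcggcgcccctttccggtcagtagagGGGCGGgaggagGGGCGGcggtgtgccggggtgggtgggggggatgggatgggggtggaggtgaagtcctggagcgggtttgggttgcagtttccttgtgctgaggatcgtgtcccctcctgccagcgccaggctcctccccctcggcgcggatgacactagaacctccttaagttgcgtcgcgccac
Dmrt2: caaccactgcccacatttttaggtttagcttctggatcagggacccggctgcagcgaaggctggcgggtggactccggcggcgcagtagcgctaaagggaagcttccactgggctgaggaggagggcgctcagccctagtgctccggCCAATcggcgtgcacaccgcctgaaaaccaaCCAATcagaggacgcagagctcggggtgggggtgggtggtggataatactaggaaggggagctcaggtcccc

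The window of Zfp503 held 1 TCF/LEF match, CTTTGAA on the strand opposite to the gene, from 210 to 204 bases before the start. A TCF/LEF match of this kind was found in 14.8% of all 32851 windows of the same length. The window of Gata3 held 2 GC boxes, which begin 188 and 176 bases before the start, and that of Dmrt2 held 2 CCAAT boxes, which begin 103 and 72 bases before it. At least 1 GC box was present in 32.7% of all windows and at least 1 CCAAT box in 33.8%. The GATA motif, present in 26.5% of all windows, had no match in these 3 windows or in the 2 windows of Gata2, and the TCF/LEF motif had none in those of Gata3, Dmrt2 and Gata2. These matches describe the letters of short windows and not bound sites. No marked matches overlap in the 3 printed windows. The G and C content was 57.2% for Zfp503, 70.0% for Gata3 and 62.4% for Dmrt2, against a median of 52.4% over all windows.

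Intensities in the deposited table are linear and are given here as log2(intensity + 1), so that a difference of 1 is a doubling. The brightest probe set of a gene, by its mean over both arrays, stood for that gene. Genes were taken as measured if this probe set was at 6 or more (an intensity of 63) on 1 array or both, a level called the floor here, which is not a limit of detection. Of the 9 genes 6 were measured: Osr2, Zfp503, Zfp703, Gata2, Gata3 and Dmrt2. The other 3, Osr1, Gata4 and Gata6, were below the floor on both arrays on every probe set. Of the 17 probe sets 8 were above the floor on both arrays, 1 on the Wnt3a array only and 8 on neither.

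**Figure D1:**
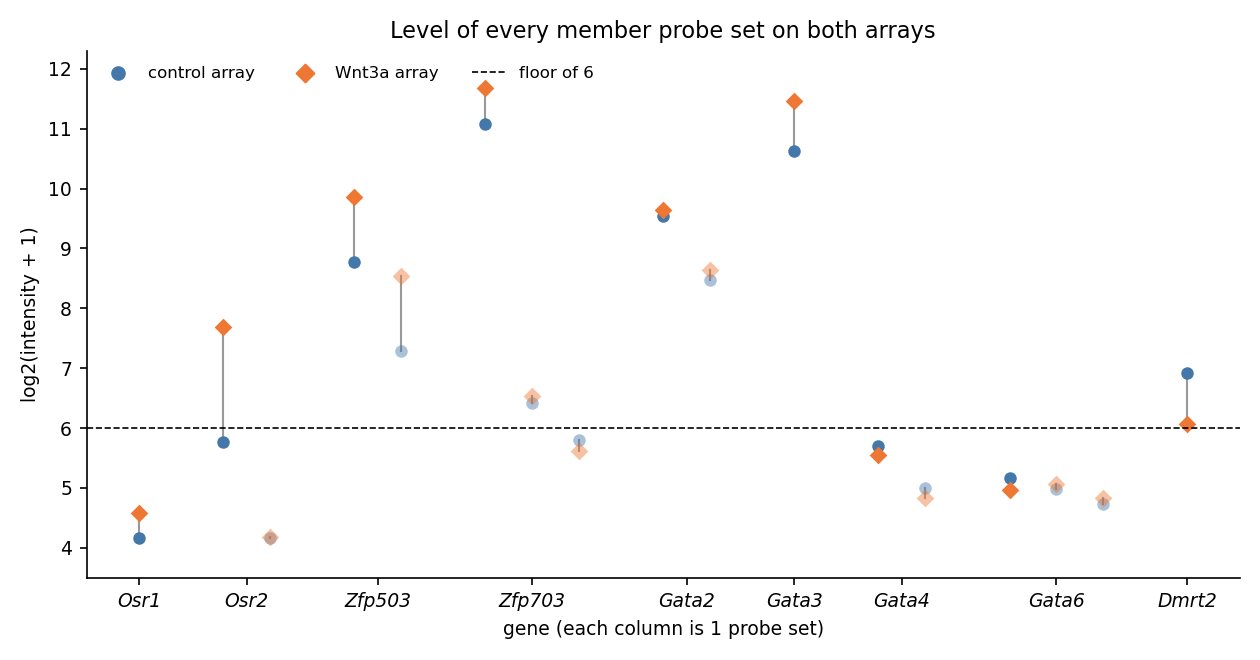
Level of each of the 17 probe sets as log2(intensity + 1) on the control array (circles) and the Wnt3a array (diamonds), with paler symbols for the dimmer probe sets of a gene and a dashed line at the floor of 6. Each symbol is a single array, and Osr2 is the gene whose brightest probe set crosses the floor, from 5.78 to 7.68.

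Of the 6 measured genes 4 were at least 1.5-fold higher on the Wnt3a array (Osr2, Zfp503, Gata3 and Zfp703), 1 was at least 1.5-fold lower (Dmrt2), and Gata2 differed by less. Among all 11397 measured genes, the share higher by 1.5-fold or more was 0.886% and the share lower by as much was 0.342%. With scaling on spike-in controls these shares would be 1.89% and 0.145%, while the members' counts would stay at 4 and 1. At 2-fold the counts were 2 higher and 0 lower, where 0.254% of all measured genes were higher and 0.0614% lower. The median difference of the 6 was 0.72, against -0.0057 for all measured genes, and it ranged from -0.85 to 1.91. Since the genes were picked with these values known, nothing is read from these counts. The gene closest to the 1.5-fold line (0.58) on its outer side was Zfp703 at 0.60, and the next inside it was Gata2 at 0.11.

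Osr2 showed the largest difference of the 9. Its brightest probe set, 1426155_a_at, had an intensity of 53.8 in the control and 205 with Wnt3a, or 5.78 and 7.68 on the log2 scale. The difference was 1.91 as measured. The control value lay below the floor. With the floor in its place the ratio is 3.21-fold, a log2 difference of 1.68, and this is not a lower bound. With all values raised to the floor, Osr2 ranked 13th from the highest of the measured genes. The 1787 measured genes within 0.5 of its mean brightness had a central 95% of differences from -0.34 to 0.38. Its second probe set, 1430950_at, was below the floor on both arrays and nearly equal on them, at 4.16 and 4.18. The 2 probe sets of Osr2 thus gave 1.91 and 0.02, and only 1 of them carries the difference.

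The paralogue Osr1 was read by 1 probe set, 1449350_at, at an intensity of 17.0 in the control and 23.0 with Wnt3a. These are 4.17 and 4.58 on the log2 scale, both below the floor, so no fold is given. The fibroblast and fibro-adipogenic markers, cells in which Osr1 is well known, were mostly dim as well. Of the 10 listed, 9 had a probe set of their own and 1 was measured, Col3a1, a collagen gene (13.42 and 13.19). Pdgfra, a defining surface marker of those cells, was at 4.77 and 4.72. The summed intensity of the list was 11266 in the control and 9619 with Wnt3a, nearly all of it from Col3a1, and none was at 0. The part of such cells in the Osr2 difference was not tested. In bulk RNA, fewer cells of a type and less RNA per cell cannot be told apart.

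The 2 NET-family genes were both higher with Wnt3a, by unequal amounts. Zfp503 was 2.11-fold higher on its brightest probe set, 1423835_at, which went from an intensity of 438 to 926 (8.78 to 9.86, a difference of 1.08). Its second probe set, 1423836_at, went from 155 to 371 (7.28 to 8.54, a difference of 1.26). Both probe sets were above the floor on both arrays, and both showed at least a doubling. In all, 12 measured genes had 2 or more probe sets at the floor that were each at least 2-fold higher, Zfp503 and Axin2 among them. The SD between the 2 probe sets of Zfp503 was 0.13, close to the pooled SD of 0.12 over 5084 genes with more than 1 probe set reaching the floor. That SD measures noise between probes only and is no replicate error.

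Zfp703 was 1.52-fold higher on its brightest probe set, 1436026_at, with intensities of 2155 in the control and 3275 with Wnt3a (11.07 and 11.68, a difference of 0.60). The 1095 measured genes of like brightness had a central 95% from -0.25 to 0.23. Its other probe sets were much dimmer and did not show a difference of that size. Probe set 1444202_at was at 6.41 and 6.53, a difference of 0.11, and 1439891_at, below the floor on both arrays, was at 5.80 and 5.61, a difference of -0.19. The 3 probe sets of Zfp703 therefore differ in sign in the deposited values, though not under spike-in scaling, and had an SD of 0.40 between them.

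Of the partners through which NET proteins repress, the Groucho-type corepressor Tle1 was the one at least 1.5-fold different. It was 1.83-fold higher, at 8.89 and 9.76, with differences from 0.87 to 1.25 over its probe sets. Tle4, a second corepressor of that family, was at 7.48 and 8.03, a difference of 0.55 (0.14 to 0.72 over its probe sets). The histone deacetylase gene Hdac2 was at -0.25 and Tle3 at 0.13, the latter from -0.27 to 0.42 over its probe sets. All 9 of the 10 listed partners with a probe set of their own were measured, 6 of them higher and 3 lower, with a median of 0.10.

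Of the GATA factors, Gata3 was the one past 1.5-fold. Its single probe set, 1448886_at, had an intensity of 1583 in the control and 2824 with Wnt3a. On the log2 scale these are 10.63 and 11.46, a difference of 0.83 or 1.78-fold. It ranked 45th from the highest of the measured genes, and the 1298 genes of like brightness had a central 95% from -0.27 to 0.20. Zfp503 has been described as a repressor of Gata3 in mammary epithelium, and here the transcripts of both were higher on the same array. A link between them was not tested.

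Gata2 was expressed above the floor at similar values on both arrays. Probe set 1450333_a_at was at an intensity of 742 in the control and 802 with Wnt3a (9.54 and 9.65), and 1428816_a_at at 354 and 396 (8.47 and 8.63). The differences were 0.11 and 0.16, and the former lies inside the central 95% of genes of like brightness (-0.31 to 0.28). With 1 array per group this does not show that the level was equal.

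Gata4 and Gata6 were below the floor throughout. The probe sets of Gata4 were at 5.71 and 5.54 (1418863_at) and at 4.99 and 4.84 (1418864_at). Those of Gata6 were at 5.17 and 4.96 (1425464_at), 4.98 and 5.06 (1425463_at) and 4.74 and 4.83 (1443081_at), so they differ in sign. The cardiac genes Myh6, Myh7 and Nppa, which mark a tissue well known for these factors, were also below the floor on both arrays. Of the 9 airway and endoderm epithelium markers 4 were measured, namely Epcam, Krt8, Sftpc and Scgb1a1, and the others were below the floor. The smooth muscle and cardiac list had 2 of 7 genes measured, Acta2 and Tnnt2, which myoblasts also express, and a summed intensity of 8834 and 10528.

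**Figure D2:**
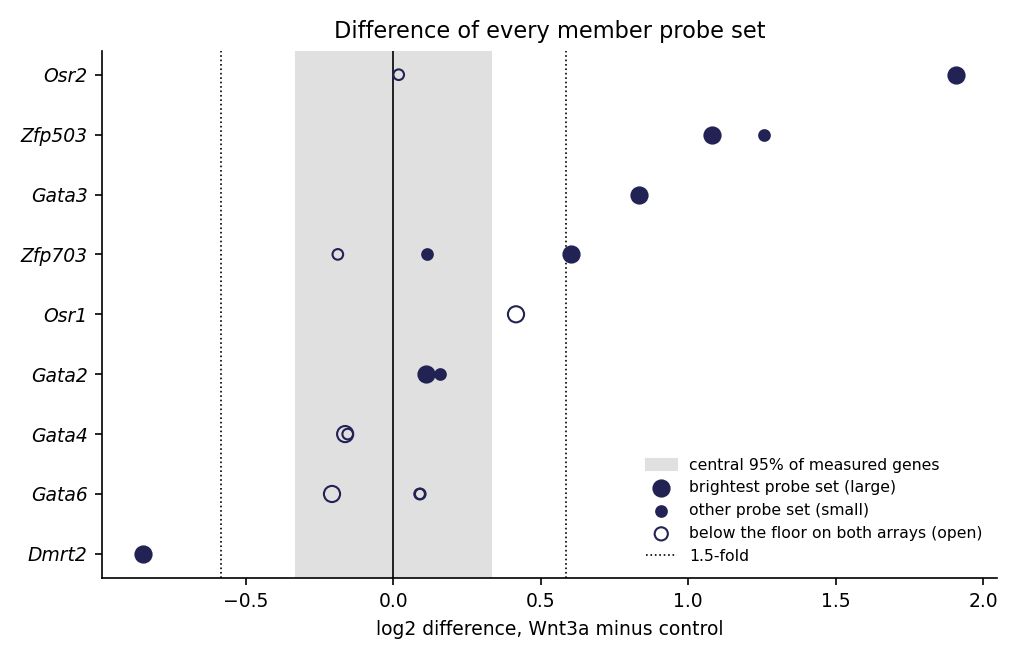
Wnt3a minus control on the log2 scale for each of the 17 probe sets, with large symbols for the brightest probe set of a gene and open symbols for those below the floor on both arrays. The grey band is the central 95% of measured genes (-0.33 to 0.33) and dotted lines mark 1.5-fold. The 2 probe sets of Zfp503 lie together at 1.08 and 1.26, while those of Osr2 lie apart at 1.91 and 0.02.

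Other genes of the GATA system differed little between the arrays. Of 10 listed relatives and cofactors 9 were measured, 6 higher and 3 lower, none by 1.5-fold, with a median of 0.14. Of all measured genes only 0.886% were higher and 0.342% lower by 1.5-fold or more. A short list with none past that line, here and in the lists below, is therefore usual. The atypical GATA-type repressor Trps1 was at 0.24, and Gata1, the erythroid factor, was at 0.22, from 6.21 to 6.44. The LIM-domain partner Lmo2 crossed the floor (5.98 to 6.18), and Gatad2b, a subunit of the NuRD repressor complex, was at 0.18 but as low as -0.14 on another probe set. Zfpm1 (0.14) and Zfpm2 (-0.11), the FOG cofactors that bind GATA factors, had values of opposite sign. Gata5 was below the floor.

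Leukocyte and mast cell markers, which accompany Gata3 and Gata2 in blood, were dim, at 7.12 or less, or below the floor. Of 10 genes 5 reached it, and the highest was 6.99 in the control (Csf1r) and 7.12 with Wnt3a (Cd4). Ptprc, the pan-leukocyte marker, was at 3.83 and 4.11, and the mast cell genes Kit, Cpa3 and Mcpt4 were below the floor on both arrays. Another mast cell gene, the chymase gene Cma1, crossed the floor from 5.90 to 6.12. The T cell receptor component gene Cd3e was at 6.54 and 6.79, and Cd4 at 6.90 and 7.12. Of the 5 measured genes of this list 3 were higher and 2 lower, none by 1.5-fold. The summed intensity of the 10 was 564 in the control and 605 with Wnt3a, and none was at 0. The endothelial list had 2 of 7 genes measured, Kdr at 6.06 on both arrays and Tek at 6.16 and 5.34, with a summed intensity of 261 and 225. The part of such cells in the Gata3 difference was not tested.

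Dmrt2 was the member lower with Wnt3a. Its 1 probe set, 1426867_at, had an intensity of 120 in the control and 66.4 with Wnt3a, or 6.92 and 6.08 on the log2 scale. The difference of -0.85 is 1.80-fold and ranked 12th from the lowest of the measured genes. The Wnt3a value lay just above the floor, and the 1925 genes of like brightness had a central 95% from -0.34 to 0.38. No second probe set was available to repeat it.

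Genes that act with Dmrt2 in the somite had differences of both signs. Of the 17 somite and dermomyotome factors 15 had a probe set of their own and 8 were measured, 5 higher and 3 lower, none by 1.5-fold, with a median of 0.05. Myf5, the gene that Dmrt2 helps to activate in the early somite, was at 11.96 and 12.45, a difference of 0.49 in the opposite direction. A link between these differences was not tested. Eya1, a transcriptional cofactor of the somite, was at 0.30, Meox1, a homeobox gene of the somite, at 0.28 (crossing the floor at 6.06), and the homeobox gene Six4 at -0.24. Mesp2 (-0.14) and Pax7 (-0.12, but 0.12 on its other probe set) were the other lower ones. Pax3, an upstream factor of the dermomyotome, was below the floor at 5.34 and 5.19. Within the DM-domain family 2 of 7 relatives were measured, Dmrta2 at -0.14 and Dmrtc1a at 0.27.

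**Figure D3:**
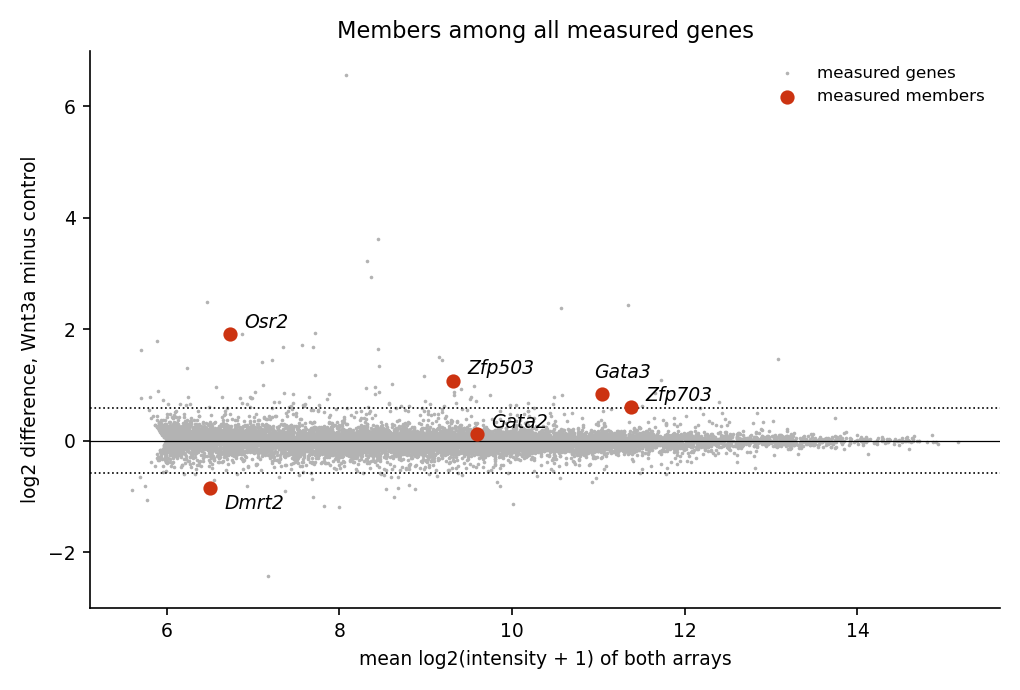
Difference (Wnt3a minus control, log2) against mean brightness for the 11397 measured genes in grey and the 6 measured members in red, with dotted lines at 1.5-fold. Osr2 and Dmrt2 lie among dim genes, where differences spread more widely, and Gata3 and Zfp703 among bright ones.

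Factors that share embryonic territories with the odd-skipped genes were mostly below the floor. Of the 15 lateral plate, kidney and limb mesoderm genes 14 had a probe set of their own and 5 were measured. Prrx1, a limb mesenchyme homeobox gene, was 1.75-fold lower with Wnt3a, at 10.26 and 9.46, with differences from -1.18 to -0.27 over its probe sets. The remaining measured ones, Foxf1 (0.14), Pitx1 (-0.10), Nkx2-5 (0.09) and Tbx18 (0.06), lay near the floor. The kidney factors Wt1, Pax8 and Lhx1 were below it on both arrays. Of 10 genes that act with Osr2 in palate and joints 5 were measured, 2 higher and 3 lower, none by 1.5-fold. Msx1, a palate homeobox gene, was at -0.16, Pax9 at -0.14, Shh, a ligand, at 0.11 and the secreted guidance gene Sema3d at 0.03. Pax9 reached 0.18 on another probe set and Shh was at -0.11 on its other one, so both differ in sign.

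**Figure D4:**
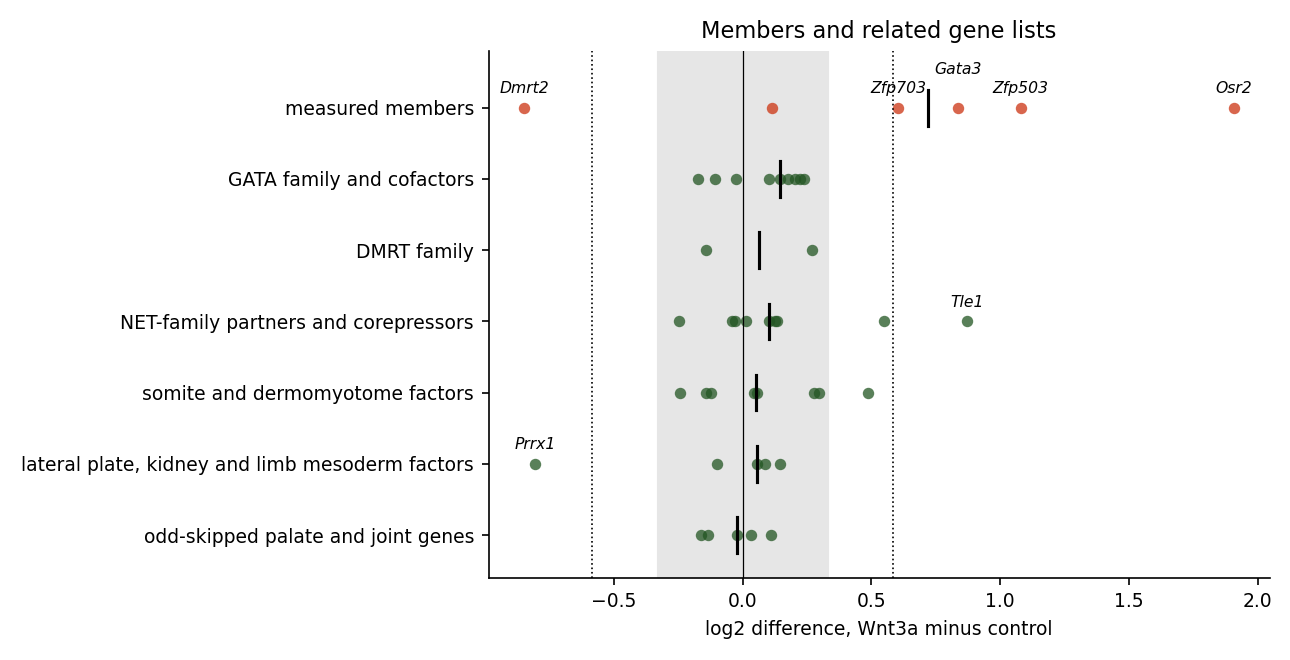
Wnt3a minus control on the log2 scale for the 6 measured members (red) and the measured genes of 6 related lists (green), 1 symbol per gene, with a vertical bar at the median of each row, the grey band at the central 95% of measured genes and dotted lines at 1.5-fold. The medians of the 6 lists lie between -0.02 and 0.14, and Tle1 and Prrx1 are the list genes past 1.5-fold.

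The genes compared here were measured ones whose probe sets at the floor all had differences of the same sign. With 2 arrays a gene's pattern is a single difference, so likeness could be measured only as the gap between differences. By that measure the genes closest to Osr2 were Lifr (1.91), a cytokine receptor gene, and Tgfb2 (1.93), a TGF-β ligand gene. The controls of Osr2 (5.78) and Lifr (5.91) lay below the floor, and with values raised to it their differences were 1.68 and 1.82, so this likeness is not close. Those closest to Zfp503 were Plpp1 (1.09), a lipid phosphatase gene, and Igfbp2 (1.02), which encodes an IGF-binding protein. Closest to Gata3 were Dop1b (0.84) and Calcrl (0.84), the receptor gene for calcitonin gene-related peptide, and closest to Zfp703 were the carbonic anhydrase gene Car13 (0.60) and the junctophilin gene Jph1 (0.60). For Dmrt2 they were the Notch target Hes1 (-0.84) and the neuropeptide receptor gene Adcyap1r1 (-0.87).

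The labels could be checked on a few genes of known behaviour. Axin2, a direct target of β-catenin signalling, was at 6.64 in the control and 10.25 with Wnt3a, with a difference of 1.72 on its other probe set. Of 5 listed genes of Wnt activity 3 were measured, with the β-catenin partner Lef1 at -0.13 and, on a dimmer probe set, at 0.12, and the feedback gene Nkd1 at -0.20, crossing the floor. All 8 myoblast markers were above the floor on both arrays, 4 higher and 4 lower with none past 1.5-fold, among them the determination factor Myod1 at 13.41 and 13.28. The differentiation factor gene Myog differed most, at 10.11 and 9.61 (-0.50), and Myf5 was next at 0.49. Both lay outside the central 95% of measured genes (-0.33 to 0.33). The airway gene Scgb1a1 was at 8.39 in the control and 5.96 with Wnt3a, and Sftpc, a lung gene, at 6.31 and 5.24, with 0.04 on its other probe set. Of the other measured epithelial markers, Epcam was at 7.47 and 7.61, with -0.16 on its other probe set. Krt8 was at 6.69 and 6.77, with differences from 0 to 0.08 over its probe sets. The summed intensity of the 9, of which 4 were measured, was 811 in the control and 527 with Wnt3a. Most of that fall came from Scgb1a1, which was read by 1 probe set. The part of such cells in the member differences was not tested. The labels name no spike-in kit. The 42 probe sets taken as spike-in controls, which read RNA of other organisms, were all lower on the Wnt3a array, with a median of -0.19. The 3 TrpnX control probe sets, none above 4.03, were left out, and 1 of them was lower. Scaling on the 42 spike-in probe sets would add 0.19 to every difference, which would turn 3 member probe sets from negative to positive. These are both probe sets of Gata4 (to 0.026 and 0.035) and the dimmest one of Zfp703 (to 0.0016), all below the floor on both arrays. No measured member changed sign on its brightest probe set.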

How the data were processed

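Per the labels' protocols, total RNA was taken up in Trizol and turned into biotinylated cRNA by an Affymetrix kit that starts at the 3′ end. Per the submitters' processing notes, the authors used RMA, affy and limma, with no version, order or setting named. The deposited values are intensities, 1 per probe set and array, from 7.09 to 37075 in the control and 7.07 to 36604 with Wnt3a, with medians of 57.9 and 58.7. They were linear. No source used here gives the step that made them so. Depth has no meaning for arrays, and their number limits the precision.

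Values were used as log2(intensity + 1), which slightly shrinks differences of dim probe sets. Of 45101 probe sets, 64 controls were left out, and of the rest GEO's annotation of the platform pairs 34945 with 1 gene and 932 with several, and 9160 were unnamed here. RefSeq genes of GRCm38.p6 held the Entrez identifier of 34741, and 0 symbols changed. Differences are Wnt3a minus control. With 1 array per group, no test was run. All members were named with every probe set, as were up to 4 measured genes of each list with the largest differences, any at least 1.5-fold different, the 2 genes closest to each member past 1.5-fold, and Axin2. Marker genes were named for their defining role. The members, lists and motifs were chosen with earlier results of these data known. Alternatives were no floor, a floor of 8 or on the mean, values raised to the floor, averaging a gene's probe sets, dropping those ending in _x_at, _s_at or _a_at, pseudocounts of 0 and 16, removal of a loess trend (span 0.3), quantile normalization, spike-in scaling and a 2-fold threshold. The procedure was tested on simulated data with the same noise spread at all levels. Shifts were planted only in genes brighter than Osr2 and Dmrt2, so genes as dim as these were not covered. Versions were matplotlib 3.10.9, numpy 2.4.6, statsmodels 0.14.6, pandas 2.3.3 and Python 3.11.15.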

Additional observations from a re-analysis of the deposited data

How the results depend on the processing

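The count of 4 members at least 1.5-fold higher became 2 with the mean over all probe sets and 2 at the 2-fold threshold. The count of 1 lower became 0 with a floor of 8, which Dmrt2 does not reach, and 0 at 2-fold. Osr2, at most 7.68, does not reach a floor of 8 either, and the higher count there was 3 of 4 measured members. Other settings kept both counts within 1.5 times. Leaving out probe sets ending in _x_at, _s_at and _a_at removed the bright probe set of Osr2, whose difference became 0.019, and gave no value for Gata2. With the mean over all probe sets Osr2 was at 0.96, Zfp703 at 0.18 and Gata6 at -0.0088. The averaged Osr2 did not reach the floor, which left 5 measured members in that setting. The 2 counted as at least 1.5-fold higher there were Zfp503 and Gata3. With values raised to the floor Osr2 was at 1.68 and Osr1, Gata4 and Gata6 were at 0. A pseudocount of 16 gave 1.66 for Osr2, 0.24 for Osr1 and -0.73 for Dmrt2. Spike-in scaling gave 0.61 for Osr1, 2.10 for Osr2, 1.27 for Zfp503, 0.79 for Zfp703, 0.30 for Gata2, 1.02 for Gata3, 0.026 for Gata4, -0.018 for Gata6 and -0.66 for Dmrt2, and it moved the median of all measured genes to 0.19. The pooled SD of 0.12 between probe sets was the yardstick, since no replicate spread exists. No difference of at least 1.5-fold changed sign in the 11 settings that changed the values, the floor or the probe sets. No paired analysis was possible because each group has 1 array.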
